A study of Mus musculus with 3 samples.

Results

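The aminoacyl-tRNA synthetases, the enzymes that load each tRNA with its amino acid, were followed at the RNA level in RAW 264.7 cells, a mouse macrophage line. The genes were chosen by name and compartment, and all 36 were found among the 46078 genes of the deposited table. They comprise 20 genes for cytosolic enzymes and subunits and 16 for mitochondrial enzymes. Of these, 35 were matched by symbol, and Mars1, the cytosolic methionyl enzyme, was matched to the row named Mars through its RefSeq synonym. Every one of the 36 had a mean of at least 1 FPKM (fragments per kilobase of exon, scaled to the size of the library), with between 155 and 11247 reads in any library.

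The study compared 3 cultures, with 1 library each. The first received hydroxyurea (HU) at 0.5 mM together with gold nanocages, the second received HU at 0.5 mM alone, and the third was an untreated control. RNA was taken after 12 hours, all cells came from the same line, which derives from a virus-induced mouse tumour and was used at passages 10 to 15, and the dose of the nanocages is not given in the sources used here. HU blocks ribonucleotide reductase and stalls DNA replication, and the submitters' text presents the nanocages as a rescue of HU-damaged cells. A culture of nanocages without HU was not analysed here.

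With 1 library per condition no difference has a replicate check, and no p-value was computed. Ratios are of CPM (reads per 1000000 counted reads of the library), with an exact 95% counting interval that covers counting error only. A gene was called higher where its CPM ratio was at least 25% above 1 and lower where it was at least 20% below 1, and both limits together are named the 25% limit. An interval that left out 1 placed a gene above or below counting error. The libraries held 18644333 counted reads for HU plus nanocages, 20057329 for HU and 14990564 for control. Macrophage markers were present, with 7 of 8 at a mean of at least 1 FPKM, Mertk being the exception at no more than 3 reads. Summed over the 8 markers the level was 2298 FPKM in HU plus nanocages, 2372 FPKM in HU and 2503 FPKM in control. None of 19 markers of fibroblasts, lymphocytes, granulocytes and mast cells, or epithelium reached that mean. Cdkn1a, the p53 target that encodes p21, had 401.0 FPKM in HU plus nanocages, 411.7 FPKM in HU and 62.96 FPKM in control. Its ratio of HU over control was 6.54 (6.25 to 6.84). In bulk RNA, fewer cells with a transcript and less of it per cell cannot be told apart.

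All of these enzymes are encoded in the nucleus. The cytosolic set serves general protein synthesis, while the mitochondrial set is imported and charges the tRNAs that read the few messages of the mitochondrial genome. Gars and Kars, the glycyl and lysyl enzymes, make forms for both compartments and are counted here with the cytosolic set. Several cytosolic enzymes form a multi-synthetase complex, and uncharged tRNA activates the kinase GCN2 (Eif2ak4), which raises translation of the transcription factor ATF4. Many cytosolic synthetase genes are known ATF4 targets, bound at composite C/EBP-ATF elements.

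That element, searched as TGATGNAA on both strands, was found in the promoters of Aars, Gars, Iars, Tars and Yars, which are shown because they are the members of the ATF4 group that carry it. RefSeq promoters, running from 250 bases before to 50 bases after the start site on GRCm38.p6, were on hand for 27 of the 36 genes. The element stood in 5 of 13 cytosolic promoters and in 0 of 14 mitochondrial ones, beside 3.97% of all 32851 promoters. The 5 belong to 8 promoters of genes listed as ATF4 targets, a list drawn up from general knowledge. Each line gives the strand of the gene, 5′ to 3′, with the element in capitals, in either orientation.
Aars, chr8:111033704-111033871, plus strand: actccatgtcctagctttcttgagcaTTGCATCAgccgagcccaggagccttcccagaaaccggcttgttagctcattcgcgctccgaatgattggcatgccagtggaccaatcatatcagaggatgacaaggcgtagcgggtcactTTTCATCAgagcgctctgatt
Gars, chr6:55037945-55038004, plus strand: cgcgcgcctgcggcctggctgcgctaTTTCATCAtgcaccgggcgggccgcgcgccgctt
Iars, chr13:49682111-49682159, plus strand: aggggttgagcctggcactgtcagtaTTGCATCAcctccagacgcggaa
Tars, chr15:11399640-11399699, minus strand: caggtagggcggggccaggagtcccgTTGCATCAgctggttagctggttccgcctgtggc
Yars, chr4:129189880-129189932, plus strand: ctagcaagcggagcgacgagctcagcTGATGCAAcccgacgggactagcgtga

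The element begins 112 bases before the start site and again at base 10 after it in Aars, 30 bases before it in Gars and 15 bases before it in Tars. In Iars it begins at base 8 and in Yars at base 4, counted from 1 at the start site. The start site is that of the promoter on hand, and starts outside these promoters were not searched. For Aars it lies at 111033842, while the RefSeq gene edge is at 111027778. Promoters of other members, Eprs, Tars2 and Aars2 among them, also lie off that edge. Of the other 6 motifs searched, also on both strands, the NRF1 site was in 5 of 27 member promoters, beside 4.6% of all promoters, and the ETS site CCGGAAG was in 9, beside 8.86%. The YY1 site AAGATGGC was in 4 (2.75% of all), the E-box CACGTG in 5 (7.15%), the GC box GGGCGG in 19 (35.7%) and the cAMP element TGACGTCA in 0 (1.79%). A match describes these letters only and shows no binding.

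The promoters of Mars2 and Lars2 are printed because these mitochondrial enzymes, for methionine and leucine, were the members past the 25% limit in a comparison. Capitals mark the ETS and NRF1 letters in Mars2 and GC boxes in Lars2, and both windows end 30 bases after the start site.
Mars2, chr1:55236927-55237206, plus strand: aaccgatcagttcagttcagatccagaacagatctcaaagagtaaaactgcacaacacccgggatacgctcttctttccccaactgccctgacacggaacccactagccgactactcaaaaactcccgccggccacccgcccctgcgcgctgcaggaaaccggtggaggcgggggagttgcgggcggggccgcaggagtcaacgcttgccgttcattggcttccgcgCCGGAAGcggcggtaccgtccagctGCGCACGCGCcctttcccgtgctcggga
Lars2, chr9:123366677-123366956, plus strand: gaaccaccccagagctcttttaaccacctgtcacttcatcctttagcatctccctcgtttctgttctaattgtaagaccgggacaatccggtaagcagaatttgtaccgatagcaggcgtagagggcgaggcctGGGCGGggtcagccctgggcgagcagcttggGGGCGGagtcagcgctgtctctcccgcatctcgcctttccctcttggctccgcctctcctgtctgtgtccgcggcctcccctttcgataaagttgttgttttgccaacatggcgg

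Cytosolic enzymes were the more abundant set in every library. Per length, the 20 cytosolic genes had a median of 68.3 FPKM in HU plus nanocages, 68.2 FPKM in HU and 73.0 FPKM in control. The 16 mitochondrial genes had a median of 9.24 FPKM in HU plus nanocages, 9.42 FPKM in HU and 10.4 FPKM in control. As a share of all counted reads the cytosolic set took 0.602% with HU plus nanocages (exact 95% interval 0.598 to 0.605), 0.604% with HU (0.601 to 0.608) and 0.631% in control (0.627 to 0.635). The mitochondrial set took 0.0791% with HU plus nanocages (0.0778 to 0.0804), 0.0766% with HU (0.0754 to 0.0778) and 0.0787% in control (0.0773 to 0.0801). The cytosolic share was thus smaller in both HU cultures than in control by more than counting error.

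Nars, the asparaginyl enzyme, was the most abundant member in all 3 libraries, at 211 FPKM in HU plus nanocages, 213 FPKM in HU and 222 FPKM in control. Gars followed with 176 FPKM in HU plus nanocages, 176 FPKM in HU and 179 FPKM in control. Tars, the threonyl enzyme, came next at 128 FPKM in HU plus nanocages, 123 FPKM in HU and 122 FPKM in control. Kars and Hars, the histidyl enzyme, lay between 104 and 111 FPKM in every library, and which of them was higher differed between libraries. At the low end of the cytosolic set were Farsa (25.7 to 27.3 FPKM), the catalytic subunit of the phenylalanyl enzyme, Eprs (27.3 to 28.5 FPKM) and Qars (28.5 to 31.9 FPKM). Eprs encodes the fused glutamyl and prolyl enzyme, and Qars the glutaminyl enzyme. Farsb, the partner subunit that assembles with Farsa, had 63.2 FPKM in HU plus nanocages, 62.6 FPKM in HU and 69.3 FPKM in control. In reads, Farsb had 3088 in HU plus nanocages, 3290 in HU and 2722 in control, and Farsa had 2300 in HU plus nanocages, 2486 in HU and 1748 in control, over deposited lengths of 2620 bases for Farsb and 4538 bases for Farsa.

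The length behind these levels is the deposited exonic size of a gene, and which exons it counts is not given in the sources used here. It is 18102 bases for Eprs and 9282 for Aars, against 2249 for Kars and 2390 for Gars, and a size that held exons little used in these cells would lower FPKM. For Mars2 the deposited size is 11294 bases, where the RefSeq gene spans 2882. The division by this length cancels in ratios between libraries. Those ratios still depend on which exons the reads were counted over, and for Mars2 this was not tested.

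**Figure D1:**
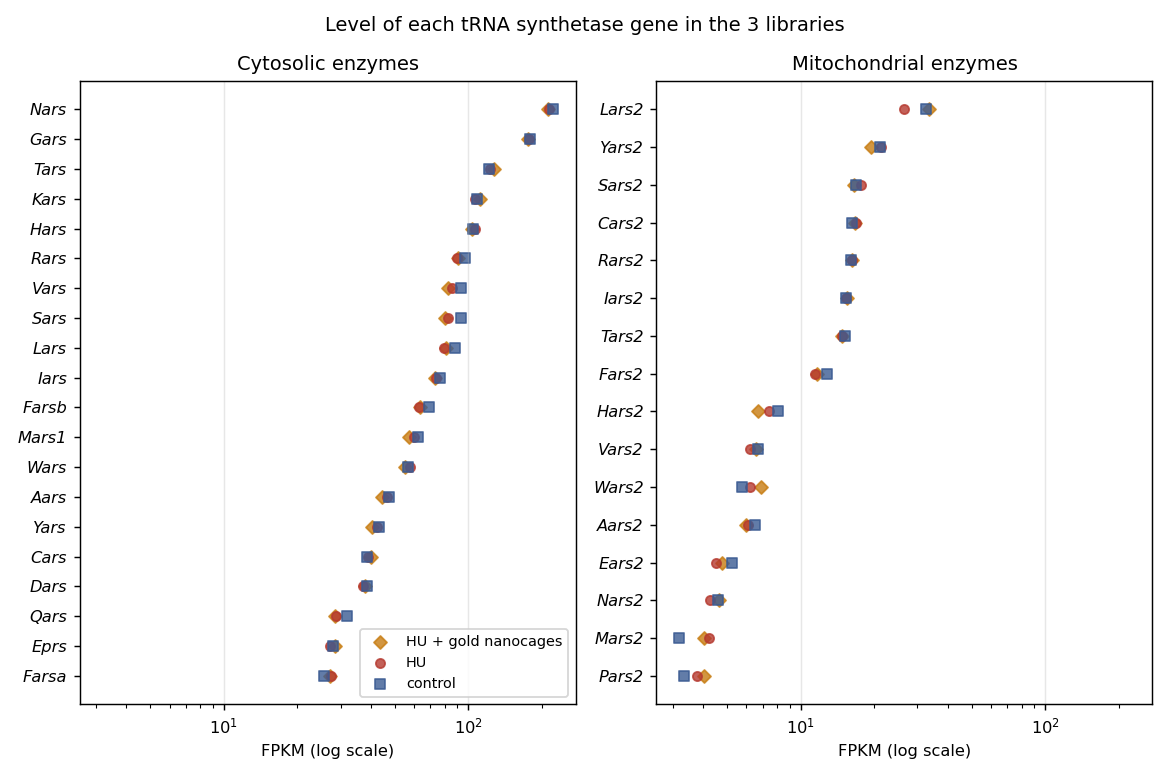
FPKM of each gene on a log axis for cytosolic (left) and mitochondrial (right) enzymes, with 1 point for each library of HU plus gold nanocages, HU and control. Cytosolic genes lie between 25.7 and 222 FPKM and mitochondrial genes between 3.18 and 33.5 FPKM, and the 3 points of a gene mostly coincide.

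Among mitochondrial enzymes Lars2 was highest, at 33.5 FPKM in HU plus nanocages, 26.6 FPKM in HU and 32.6 FPKM in control. Yars2, for tyrosine, had 19.4 FPKM in HU plus nanocages, 21.3 FPKM in HU and 21.0 FPKM in control. Sars2, Cars2, Rars2, Iars2 and Tars2, for serine, cysteine, arginine, isoleucine and threonine, lay between 14.8 and 17.6 FPKM in all libraries. Fars2, the single-chain phenylalanyl enzyme, had 11.6 FPKM in HU plus nanocages, 11.4 FPKM in HU and 12.8 FPKM in control. Below 10 FPKM were Hars2, Vars2, Wars2, Aars2, Ears2, Nars2, Mars2 and Pars2, for histidine, valine, tryptophan, alanine, glutamate, asparagine, methionine and proline. Pars2 rested on the fewest reads, with 232 in HU plus nanocages, 233 in HU and 155 in control.

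For each of 16 amino acids the cytosolic gene was set against its mitochondrial partner, in 17 pairs because Farsa and Farsb were both set against Fars2. The FPKM ratio of cytosolic over mitochondrial gene was above 1 in every pair and library, ranging from 1.98 to 50.1. Asparagine had the widest gap, with Nars over Nars2 at 45.6 in HU plus nanocages, 50.1 in HU and 48.5 in control. Tyrosine had among the narrowest, with Yars over Yars2 at 2.08 in HU plus nanocages, 1.98 in HU and 2.05 in control. For methionine the ratio of Mars1 to Mars2 was 14.3 in HU plus nanocages, 14.2 in HU and 19.5 in control, lower in both HU cultures. For leucine the ratio of Lars to Lars2 was 2.43 in HU plus nanocages, 2.99 in HU and 2.72 in control.

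**Figure D2:**
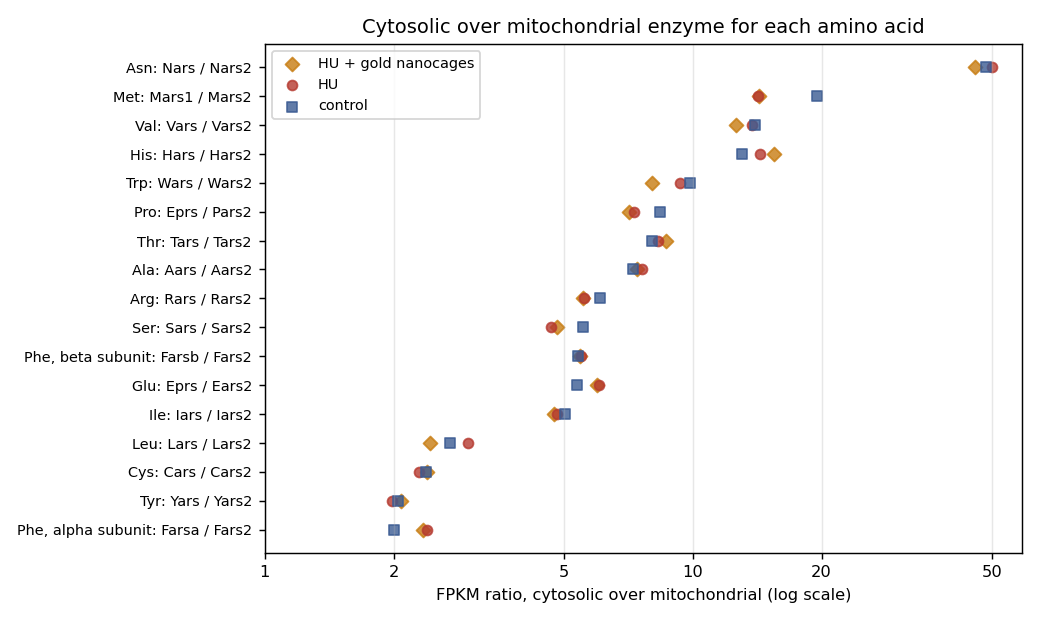
FPKM of the cytosolic gene over FPKM of its mitochondrial partner on a log axis, 1 point per library. The pairs range from 1.98 to 50.1, and the methionine pair shows the control library apart from both HU libraries (19.5 against 14.3 and 14.2).

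HU plus nanocages against HU asked what the nanocages change in cells that receive HU. No cytosolic enzyme was past the 25% limit, and of the mitochondrial enzymes 1, Lars2, was. Over all 10849 genes with a mean of at least 1 FPKM 7.05% were past it, 3.74% higher and 3.31% lower. Of the 20 cytosolic genes, 3 were above and 5 below counting error, beside 8.35% of all genes above, 7.78% below and 16.1% either way. Among 2358 genes in the same range of mean FPKM those shares were 11.7% and 13.5%, and 1.15% were past the 25% limit in either direction. The median log2 CPM ratio was -0.01 for the cytosolic set, 0.02 for the mitochondrial set and 0.00 for all genes.

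Tars, Eprs and Kars were the cytosolic genes above counting error. Tars had a CPM ratio of 1.04 (1.00 to 1.07), Eprs 1.05 (1.02 to 1.08) and Kars 1.05 (1.00 to 1.09). The genes below it were Wars, the tryptophanyl enzyme known to be induced by interferon, at 0.954 (0.912 to 0.999), Mars1 at 0.955 (0.913 to 0.999), Aars at 0.958 (0.929 to 0.988), Yars at 0.959 (0.921 to 0.998) and Vars at 0.971 (0.943 to 1.00). All 8 ratios lay between 0.954 and 1.05, and several intervals ended next to 1. The other 12 intervals included 1, with ratios from Sars at 0.971 to Cars, the cysteinyl enzyme, at 1.03.

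Lars2 had 2423 reads in HU plus nanocages, 2067 in HU and 1894 in control, or 130 CPM in HU plus nanocages, 103 CPM in HU and 126 CPM in control. Its CPM ratio was 1.26 (1.19 to 1.34) for HU plus nanocages over HU, and 3.32% of 6302 genes in the mitochondrial enzymes' range of FPKM were past the 25% limit in that comparison. The HU library alone is low, since HU over control was 0.816 (0.766 to 0.869) and HU plus nanocages over control 1.03 (0.968 to 1.09). Both ratios that depart from 1 rest on that library. Cytosolic Lars shared this in part. Its HU over control ratio was also below 1, at 0.897 (0.865 to 0.931). Its ratio of HU plus nanocages over HU was 1.02 (0.988 to 1.06), and that of HU plus nanocages over control 0.919 (0.885 to 0.955).

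Ribosomal RNA entries and a predicted gene, looked up after Lars2 was seen, varied beside it. The 18S-related entry Rn18s-rs5 had 405 CPM in HU plus nanocages, 184 CPM in HU and 225 CPM in control. The predicted gene Gm23935 had 406 CPM in HU plus nanocages, 200 CPM in HU and 295 CPM in control. Both were lowest in HU and highest in HU plus nanocages, as Lars2 was. The mitochondrial ribosomal RNA mt-Rnr2 had 512 CPM in HU plus nanocages, 480 CPM in HU and 547 CPM in control, and mt-Rnr1 had 515 CPM in HU plus nanocages, 556 CPM in HU and 620 CPM in control. Their part in the Lars2 difference was not tested.

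Of the 15 other mitochondrial enzymes, Yars2 was below counting error at a ratio of 0.911 (0.841 to 0.987), and 14 intervals included 1. Hars2 had the lowest ratio at 0.903 (0.804 to 1.01), and Wars2 the highest after Lars2, with an interval of 0.997 to 1.22. With 1 of 16 genes above counting error and 1 below, the set was near the 8.2% above and 6.44% below among genes in its range of FPKM.

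**Figure D3:**
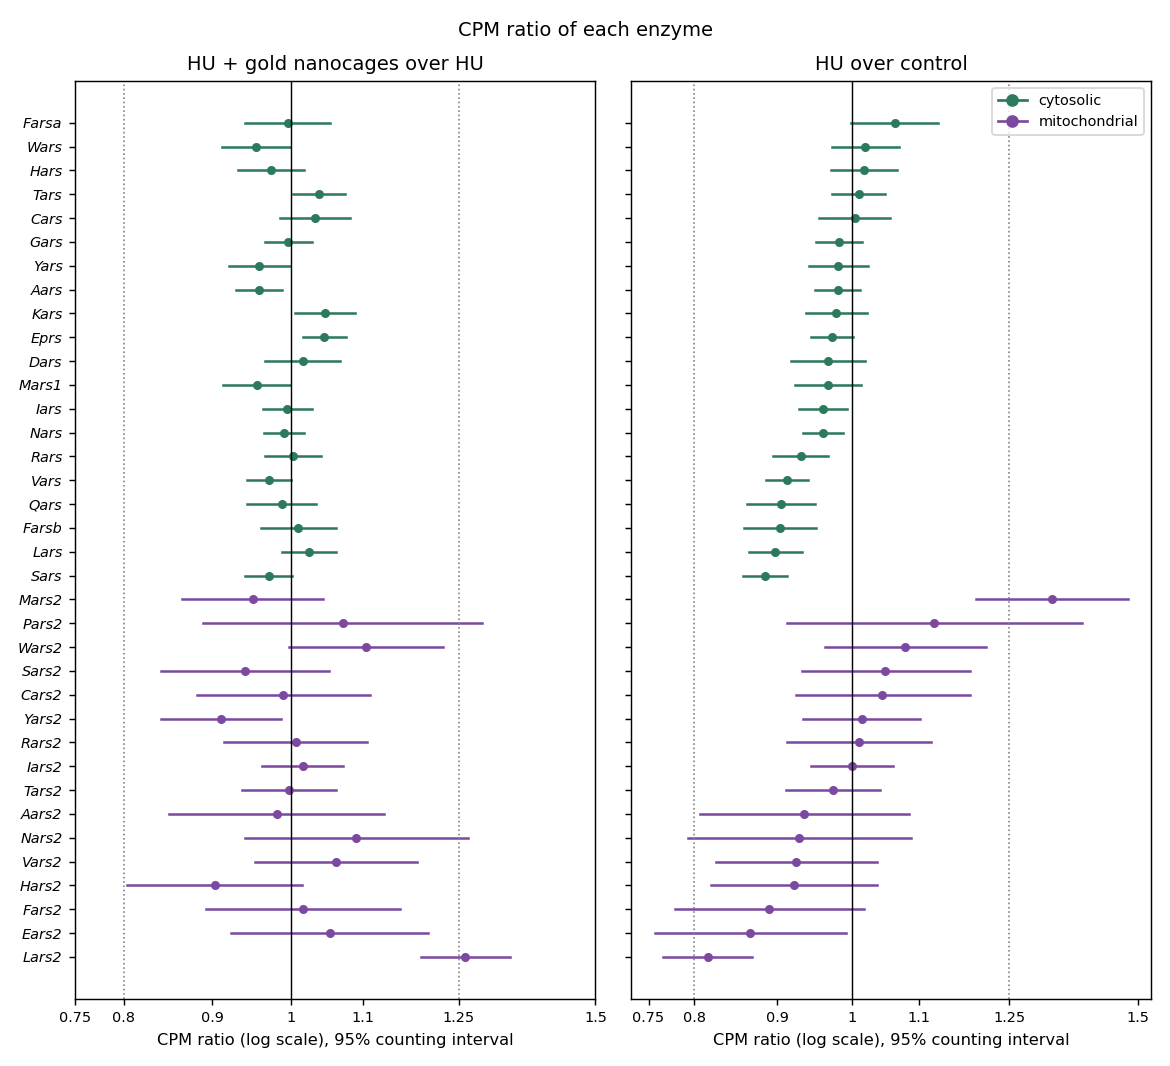
CPM ratio of each enzyme on a log axis with its exact 95% counting interval, for HU plus gold nanocages over HU (left) and HU over control (right), with dotted lines at the 25% limit. Lars2 is at 1.26 on the left and 0.816 on the right, and Mars2 at 1.33 on the right, while cytosolic ratios lie between 0.884 and 1.06.

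HU against control asked how the enzymes differ in cells given the drug alone, and it shares the HU library with the comparison above. The cytosolic set was slightly lower, with 8 of 20 genes below counting error and 0 above. Over all 10849 genes 20.1% were below and 18.7% above (38.8% either way), and among genes in the cytosolic range of FPKM 23.3% were below and 23.8% above. The set's summed CPM ratio was 0.957 (0.949 to 0.966), and the median log2 ratio was -0.04, against -0.01 over all genes. No cytosolic gene was past the 25% limit, beside 19.3% of all genes (10.5% higher and 8.83% lower) and 7.59% of those in the same range of FPKM.

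Sars, the seryl enzyme, had the lowest cytosolic ratio, 0.884 (0.857 to 0.913), with 79.9 FPKM in HU plus nanocages, 82.4 FPKM in HU and 93.2 FPKM in control. Lars followed at 0.897 (0.865 to 0.931), with 81.3 FPKM in HU plus nanocages, 79.4 FPKM in HU and 88.5 FPKM in control. Farsb had a ratio of 0.903 (0.858 to 0.951), whereas its partner subunit gene Farsa had 1.06 (0.999 to 1.13). Vars, the valyl enzyme, was at 0.913 (0.886 to 0.940), with 82.9 FPKM in HU plus nanocages, 85.3 FPKM in HU and 93.5 FPKM in control. In each of Sars, Lars, Farsb and Vars the control library was highest, as in 41.1% of genes in the cytosolic range of FPKM. Control above HU only restates their low ratios.

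Qars was at 0.905 (0.863 to 0.949), Rars, the arginyl enzyme, at 0.930 (0.895 to 0.967), Nars at 0.960 (0.934 to 0.987) and Iars, the isoleucyl enzyme, at 0.960 (0.928 to 0.993). The 12 genes whose intervals included 1 ran from Mars1 at 0.967 (0.923 to 1.01) and Dars, the aspartyl enzyme, at 0.967 (0.918 to 1.02) to Farsa. Gars, at 0.982 (0.951 to 1.01), and Kars, at 0.978 (0.937 to 1.02), which serve both compartments, were among them. So were Aars, Cars, Eprs, Hars, Tars, Wars and Yars, between 0.973 and 1.02.

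By position in the multi-synthetase complex, 4 of the 8 member enzymes were below counting error (Lars, Qars, Rars and Iars) and 4 were not (Mars1, Dars, Eprs and Kars), beside 23.3% below among genes in the cytosolic range of FPKM. Of its scaffold genes, Aimp1 was below it at 0.917 (0.855 to 0.984), and Aimp2 and Eef1e1 were at 1.01, with intervals of 0.932 to 1.08 and 0.940 to 1.08. Over all 11 genes the summed CPM ratio was 0.951 (0.938 to 0.963), close to the 0.957 of the whole cytosolic set. By catalytic class the medians were also alike, at a log2 ratio of -0.04 for the 19 class I genes and -0.04 for the 17 class II genes of both compartments. Below counting error were 7 class I and 3 class II genes, and above it 1 and 0, beside 20.1% below and 18.7% above over all genes. Eprs, which holds both classes, was counted with class I.

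The listed ATF4 targets and the other cytosolic enzymes had overlapping ratios. Beside that same 23.3%, 4 of 12 listed targets were below counting error, with log2 ratios from -0.18 to 0.03 (median -0.03). Of the 8 others, 4 were below it, with log2 ratios from -0.15 to 0.09 (median -0.08). The 5 genes with a TGATGNAA element in the printed promoters, Aars, Gars, Iars, Tars and Yars, had ratios between 0.960 and 1.01.

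Mitochondrial enzymes had no common direction in HU against control, with 8 of 16 ratios above 1 and 8 below. Of the 16, 1 was above and 2 were below counting error, beside 18.8% above and 21.8% below among genes in their range of FPKM. Mars2 was the gene past the 25% limit, and 15.6% of genes in that range were past it. It had 845 reads in HU plus nanocages, 957 in HU and 539 in control, which is 4.01 FPKM in HU plus nanocages, 4.22 FPKM in HU and 3.18 FPKM in control. The ratio of HU over control was 1.33 (1.19 to 1.48), that of HU plus nanocages over control 1.26 (1.13 to 1.41), and that of HU plus nanocages over HU 0.950 (0.865 to 1.04). The control library is low and the HU libraries are close to each other. Mars1, for the same amino acid in the cytosol, had 57.3 FPKM in HU plus nanocages, 60.0 FPKM in HU and 62.0 FPKM in control, so the control library was the highest for Mars1 and the lowest for Mars2.

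Lars2 at 0.816 and Ears2, the glutamyl enzyme, at 0.866 (0.756 to 0.992) were the mitochondrial genes below counting error. Ears2 had 4.76 FPKM in HU plus nanocages, 4.52 FPKM in HU and 5.22 FPKM in control. The other 13 intervals included 1, from Fars2 at 0.890 (0.779 to 1.02) to Pars2 at 1.12 (0.913 to 1.39). Intervals of the mitochondrial genes are wider because they hold fewer reads, so a change as small as that of Sars would not have been detectable at the depth of Pars2, Nars2 or Aars2. Iars2 and Rars2 varied least over the 3 libraries of all 36, with a highest-to-lowest CPM ratio of 1.02 each.

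**Figure D4:**
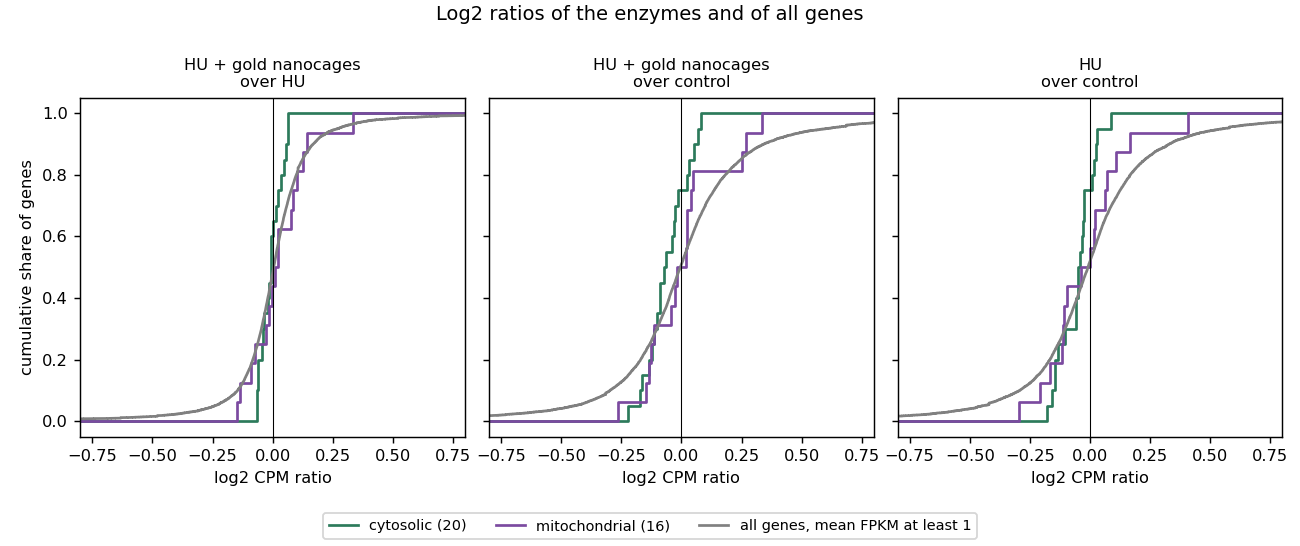
Cumulative share of genes against the log2 CPM ratio, for cytosolic enzymes (20 genes), mitochondrial enzymes (16) and all 10849 genes with a mean of at least 1 FPKM, in 3 comparisons. The cytosolic median lies left of 0 against control (-0.07 with HU plus nanocages and -0.04 with HU), and 5 of the 20 cytosolic genes lie right of 0 in each of those panels.

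HU plus nanocages against control gave the total difference from untreated cells; it shares the control library with HU against control and the HU plus nanocages library with the first. Of the 20 cytosolic genes, 11 were below counting error and 1, Tars, was above it, at 1.05 (1.01 to 1.09). The background over 10849 genes was 20.1% below and 19.6% above (39.7% either way), and 25.7% and 24.6% among genes in the cytosolic range of FPKM. The genes below were Sars (0.858), Vars (0.886), Qars (0.893), Farsb (0.912), Lars (0.919), Mars1 (0.924), Rars (0.932), Aars (0.939), Yars (0.941), Nars (0.951) and Iars (0.956). The median log2 ratio of the cytosolic set was -0.07, against 0.00 over all genes, and the summed CPM ratio was 0.953 (0.945 to 0.961). None of the cytosolic genes was past the 25% limit, beside 19.5% of all genes (10.9% higher and 8.58% lower) and 8.18% of those in the same range of FPKM.

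Among mitochondrial enzymes the summed CPM ratio was 1.01 (0.981 to 1.03), with Mars2 and Wars2 above and Hars2 below counting error, beside 20% above and 21% below among genes in their range of FPKM. Mars2 was the 1 gene past the 25% limit, as were 15.9% of genes in that range. Wars2 had 6.87 FPKM in HU plus nanocages, 6.22 FPKM in HU and 5.77 FPKM in control, and a ratio over control of 1.19 (1.06 to 1.34). Hars2 had 6.69 FPKM in HU plus nanocages, 7.41 FPKM in HU and 8.04 FPKM in control, and a ratio over control of 0.832 (0.736 to 0.941). Hars had 104 FPKM in HU plus nanocages, 106 FPKM in HU and 105 FPKM in control. Hars and Hars2 lie head to head on chromosome 18 and overlap by 198 bases on opposite strands in GENCODE M21, and reads of the shared stretch cannot be told apart without the strand setting of the counting. Pars2 had a ratio of 1.20, but its interval of 0.978 to 1.48 included 1.

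Over the 3 libraries the highest-to-lowest CPM ratio had a median of 1.06 for cytosolic enzymes (1.02 to 1.17) and 1.09 for mitochondrial enzymes (1.02 to 1.33). Genes in the cytosolic range of FPKM had a median of 1.08, and those in the mitochondrial range 1.13. The control library was highest for 13 of 20 cytosolic genes (65.0%) and 6 of 16 mitochondrial genes (37.5%), beside 41.1% of genes in the cytosolic range of FPKM and 44.1% in the mitochondrial range. HU plus nanocages was lowest for 11 of 20 cytosolic genes (55.0%), beside 33.3% of genes in their range. Both medians of spread were below those of genes in the same range of FPKM.

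In the wider pathway, genes of the integrated stress response had ratios spread more widely than the synthetases in HU against control. Of 21 measured of 22 listed, 4 were past the 25% limit higher and 5 lower, beside 10.5% higher and 8.83% lower over all genes. By the counting interval 6 of the 21 were above and 13 below, beside 18.7% above and 20.1% below over all genes. Their ratios ran from 0.442 to 6.89, with a median log2 ratio of -0.10. Sesn2 and Ddit4, stress genes that restrain mTOR and that p53 also regulates, were the highest (3.98 and 6.89). Chac1, a glutathione-degrading enzyme induced by ATF4, and Ddit3, which encodes CHOP, were the lowest (0.442 and 0.563). The remaining genes past the limit, named after their values were seen, were Slc7a11 (1.37) and Atf5 (1.45) above it and Nupr1 (0.619), Stc2 (0.692) and Atf4 (0.796) below it. Atf4 had 285 FPKM in HU plus nanocages, 290 FPKM in HU and 365 FPKM in control, a ratio of HU over control of 0.796 (0.774 to 0.819). In HU plus nanocages over HU the list's median log2 ratio was 0.01, and 1 of 21 genes, Cebpb, also named after its value was seen, was past the 25% limit (1.26), beside 7.05% of all genes. Ddit3 overlaps Mars1 by 68 bases on the opposite strand. Of 4 genes listed around the sensing of tRNA charge, Gcn1 was not found by symbol. Of the 3 measured, 2 were above and 0 below counting error in HU over control. Over all genes 18.7% were above. Eif2ak4, which encodes GCN2, had an HU over control ratio of 0.972 (0.883 to 1.07). Eif2s1, the substrate of GCN2, was at 1.07 (1.02 to 1.11), and Ppp1r15a at 1.12 (1.02 to 1.23).

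Genes that work beside the mitochondrial enzymes were counted in the same way. Of 11 listed mitochondrial translation factors, 10 were found by symbol and 9 were measured. Of these 9, 2 were below and 0 above counting error in HU over control, beside 20.1% below and 18.7% above over all genes. They were Mtif2, the initiation factor, at 0.813 (0.720 to 0.919), and Mtfmt, which formylates the initiator methionyl-tRNA that Mars2 charges, at 0.814 (0.740 to 0.895). Mtfmt had 11.7 FPKM in HU plus nanocages, 12.4 FPKM in HU and 15.2 FPKM in control, highest where Mars2 was lowest. Mitochondria charge their glutamine tRNA through Ears2 and an amidotransferase. In HU over control the intervals of its 3 subunit genes included 1, with Qrsl1 at 0.916 (0.819 to 1.02) and Gatb and Gatc at 1.05 each. In HU plus nanocages over HU, Qrsl1 and Gatc were above counting error, at 1.13 (1.02 to 1.26) and 1.16 (1.02 to 1.33), and Gatb was at 0.975 (0.900 to 1.05), beside 8.35% of all genes above. Of 77 mitochondrial ribosomal protein genes, 4 were above and 11 below counting error in HU over control, beside 18.7% above and 20.1% below over all genes, with a median log2 ratio of 0.02. Those below included Mrpl23 at 0.790, Mrpl1 at 0.798, Mrpl43 at 0.819 and Mrps27 at 0.830. Those above, named after their values were seen, were Mrpl12, Mrps15, Mrpl54 and Mrpl49, at 1.06 to 1.16.

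Cytosolic elongation and termination factors (8 genes) had a median log2 ratio of -0.01 in HU over control, with 1 above (Eef1a1, at 1.02) and 2 below counting error (Eef2, at 0.971, and Eef1g), beside 18.7% above and 20.1% below over all genes. Eef1g, a subunit of the exchange factor that binds Vars, was at 0.916 (0.890 to 0.944), beside 0.913 for Vars. Other subunit genes of that factor were not lower by the interval, with Eef1b2 at 0.984 (0.959 to 1.01) and Eef1d at 1.01 (0.969 to 1.05). Eef1d was named after its value was seen. Among 15 measured genes of tRNA processing, export and editing, 3 were above and 2 below counting error, beside the same shares over all genes. Those above were Yrdc, at 1.09 (1.00 to 1.18), Elac2, the tRNA 3′-end nuclease, at 1.09 (1.02 to 1.16), and Ptrh2, a peptidyl-tRNA hydrolase, at 1.13 (1.00 to 1.28). Those below were Prorsd1, at 0.706 (0.570 to 0.875), and Dtd2, at 0.777 (0.618 to 0.975), genes of the editing group. Yrdc, Prorsd1 and Dtd2 were named after their values were seen. The tRNAs themselves were hardly measured. Of 22 mitochondrial tRNA genes in the table, 21 had no reads in any library, an upper limit of 0.161 CPM in HU plus nanocages, 0.150 CPM in HU and 0.200 CPM in control from a floor of 3 counts. The exception was mt-Tp, for proline, with 51.3 CPM in HU plus nanocages, 48.1 CPM in HU and 43.6 CPM in control.

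**Figure D5:**
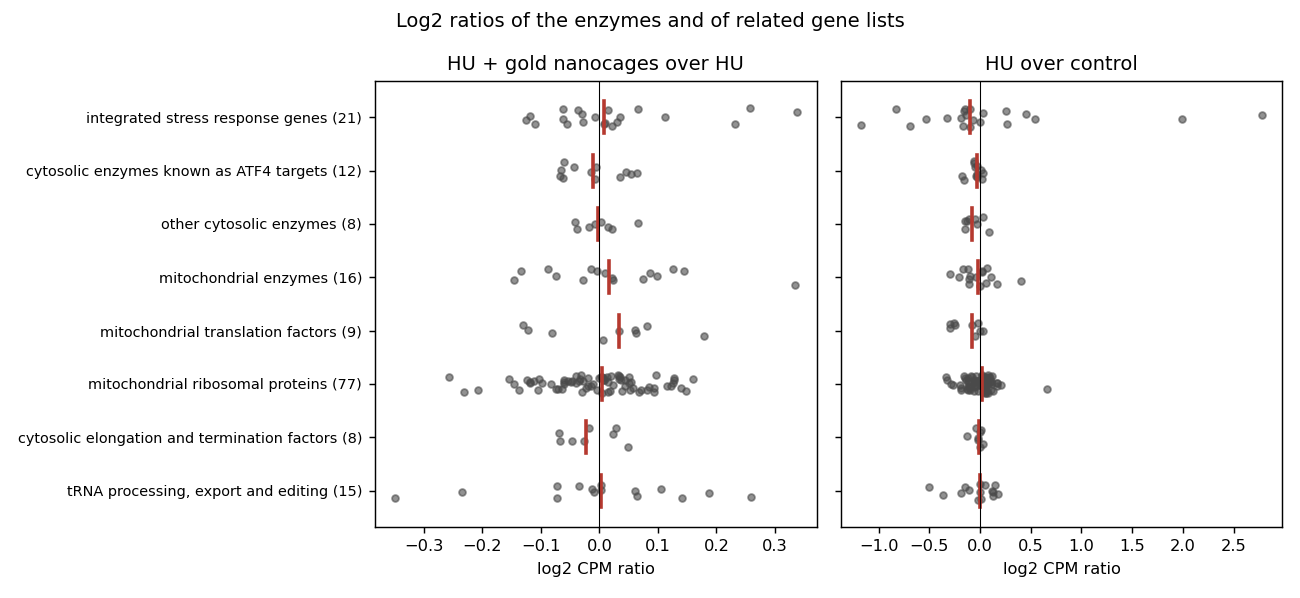
Log2 CPM ratio of each measured gene (points) and the median of each list (red bars) for the enzymes and related lists, for HU plus gold nanocages over HU (left) and HU over control (right), with different horizontal scales. In HU over control the integrated stress response genes spread from -1.18 to 2.78, while cytosolic enzymes stay between -0.18 and 0.09.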

How the data were processed

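The authors deposited 1 table with raw read counts per gene and library, FPKM values and an exonic gene size in bases, per the file headers. Dividing counts by exonic size and by library total gave back the deposited FPKM, within rounding, for 100% of genes. Per the submitters' processing notes, the tools were HISAT2 2.0.1, HTSeq 0.6.1, DESeq, cutadapt, SAMtools 0.1.18 and bcl2fastq 2.17.1.14 on build mm10, listed without roles. Annotation release and strandedness (not given in the sources used here) limit what can be said of overlapping genes, since genes on opposite strands may then share reads.

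CPM ratios used the summed counts, and their exact (Clopper-Pearson) 95% intervals came from SciPy 1.17.1. The intervals were run on simulated counts that held counting error only, which checks the calculation and says nothing of these libraries. These intervals hold counting error and nothing more. Without molecular identifiers, copies of the same molecule count as separate reads, so the intervals may be too narrow even for counting error. One read stood for 0.0536 CPM in HU plus nanocages, 0.0499 in HU and 0.0667 in control. Background shares are over genes with a mean of at least 1 FPKM. A symbol with several identifiers was read from the identifier with most reads. Gene positions came from GENCODE M21 and promoters from RefSeq, both on GRCm38, the assembly of mm10. Alternatives were pseudocounts of 0.1, 1 and 5 FPKM, scaling by edgeR 4.0.16 TMM, DESeq2 1.42.0 size factors or the upper quartile, other thresholds and filters, and a length correction.

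All 36 members were named. From each related list up to 4 genes were named by the size of their HU over control ratio at a mean FPKM of at least 5, and exceptions are stated. Some of these named genes are given by list counts only. Synonyms were looked up for the 36 members only, so a listed gene that was not found may stand under another name. The enzymes, related lists and motifs were chosen with earlier results of these data known.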

Additional observations from a re-analysis of the deposited data

How the results depend on the processing

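The 6 median log2 ratios (3 comparisons, 2 compartments) moved by less than the counting interval of the member nearest the median under every alternative run (54 values). That interval can be larger than the median itself, so passing it is a weak check. The cytosolic median stayed between -0.05 and -0.03 in HU over control and between -0.07 and -0.05 in HU plus nanocages over control. Of 756 single ratios, 2 left their counting interval, both of Mars2 with a pseudocount of 5 FPKM (1.1 for HU plus nanocages and 1.13 for HU, each over control). With scaling by TMM, DESeq2 or the upper quartile the median log2 ratio of all genes lay between -0.014 and 0.007 over the 3 comparisons. With the summed counts it lay between -0.009 and 0.004. Counts of called genes were small and changed with the threshold. In HU over control, the interval rule called 8 cytosolic and 3 mitochondrial enzymes, a 1.1-fold threshold 4 and 5, and the 1.5-fold threshold 0 mitochondrial. In HU plus nanocages over HU the interval rule called 8 and 2, 1.1-fold 3 mitochondrial and 1.5-fold 0 mitochondrial. In HU plus nanocages over control the interval rule called 12 and 3, 1.1-fold 3 and 5, and 1.5-fold 0 mitochondrial. Over all genes the interval rule called 38.8%, 16.1% and 39.7% in these 3 comparisons, in the order given. Shares of all genes past 1.1-fold or 1.5-fold are not given here, so the counts at those thresholds have no background. The mitochondrial count became 0 once 5 FPKM was added in all 3 comparisons. Adding 1 FPKM, or keeping genes of at least 5 FPKM on average, gave 0 in both comparisons with control, because Mars2, at 3.18 to 4.22 FPKM, was shrunk or left out. No paired analysis was possible because each condition has 1 library, and for the same reason no library could be left out.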

Other observations

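Wars2 overlaps the sense-intronic genes Gm43024 and Gm42717, which held between 1 and 12 reads in any library, against 514 to 762 reads for Wars2. Iars2 overlaps Rab3gap2 by 2034 bases on the opposite strand. Rab3gap2 had 189 CPM in HU plus nanocages, 188 CPM in HU and 224 CPM in control, while Iars2 had nearly equal levels in all 3 libraries.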
